A study of Mus musculus with 8 samples.

Results

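Keratins are the intermediate filament proteins of epithelial cells, and 48 keratin genes, every deposited symbol made of Krt and a number alone, were read out among 24063 genes in tubuloids with an inducible Pkd2 knockout. Symbols ending in a letter (4 of them, Krt6a, Krt6b, Krt33a and Krt33b) and keratin-associated proteins fell outside this choice. Tubuloids are tubule-like structures grown between layers of Matrigel from collagenase-digested kidney fragments of mice. The age of the mice is postnatal day 7 to 10 in the labels and day 4 to 7 in the study's methods. All 8 cultures were of the genotype Pkd2fl/fl Pax8rtTA TetOCre mTmG, that is, floxed Pkd2 alleles, a doxycycline-dependent transactivator under the Pax8 promoter of renal epithelium, a Cre recombinase that it drives, and a membrane reporter turning from red to green on recombination. From day 3 of culture, 4 received doxycycline (DOX), which switches Cre on in epithelial cells through the Pax8 promoter, and 4 received the vehicle DMSO, for 3 days, and RNA was taken on day 7. DMSO cultures thus carried the same alleles without induced Cre. Per the study's methods the medium of all cultures held growth factors, with GDNF at the start only. Undifferentiated structures without E-cadherin were present beside the tubuloids, and the study's results state that they did not respond to doxycycline. In the study's cultures doxycycline lowered the protein polycystin-2, which was still detectable. Libraries are named by treatment and title number (DMSO 3, 5, 15 and 20; DOX 9, 12, 19 and 21). Nothing in the labels says that they came from separate animals, so p-values measure the spread between these cultures.

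Each library held 63922677 to 102716313 summed transcript counts. DMSO 20 and DOX 19 stood apart by the number of genes with a count, 13243 and 13599 against 17054 to 17903 in the other 6 libraries, and a number of fold changes are also given without both. Pkd2 itself had normalised counts of 4813 to 7538 with DMSO and 4136 to 5952 with DOX (DESeq2 log2 fold change -0.31, adjusted p = 0.999; -0.28 without DMSO 20 and DOX 19), and a count for the full transcript cannot set its floxed exons apart. The kidney epithelial markers Pax2, Pax8, Cdh16, Epcam and Cdh1 had counts in all 8 libraries, with a summed level of 109 to 1107 TPM (transcript abundance scaled for transcript length and library total) in DMSO and 209 to 619 in DOX libraries.

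A keratin filament is built from pairs of an acidic type I and a basic type II keratin, so that each cell needs at least one of each. Simple, single-layered epithelia such as renal tubules use Krt8 (type II) with Krt18 (type I), to which ducts add Krt7 (type II) and Krt19 (type I). Basal cells of stratified epithelia use Krt5 (type II) with Krt14 (type I), their suprabasal and squamous layers use others such as Krt1 with Krt10 or Krt4 with Krt13, wounded epidermis turns on Krt6a, Krt16 and Krt17, and the hair follicle has a large set of its own. Of the 48 genes, 26 are type I and 22 type II. In the mouse RefSeq annotation (GRCm38.p6, the same assembly as mm10, 47 of the 48 symbols matched) 25 of the type I genes lie on chromosome 11 and 21 of the type II genes on chromosome 15, where Krt18, the only type I gene found there, lies next to Krt8.

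The stretch before the start of transcription is shown for Krt8, Krt18 and Krt7, which were abundant in every library, and for Krt5, which had a count in 4 of 8 libraries, because these genes share chromosome 15 and lay far apart in level. RefSeq promoter windows were found for 34 of the 48 genes (35 windows). Each sequence covers 150 bases before and 20 bases after the annotated start, on the strand of the gene, with matches on either strand to the TATA box letters TATAAA, the GC box letters GGGCGG, the AP-1 letters TGANTCA and the Grainyhead letters AACCGG in capitals.
Krt8, chr15:102004323-102004492, minus strand: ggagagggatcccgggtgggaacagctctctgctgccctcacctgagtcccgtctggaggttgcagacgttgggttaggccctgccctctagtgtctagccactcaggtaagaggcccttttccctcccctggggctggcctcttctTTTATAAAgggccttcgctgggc
Krt18, chr15:102028066-102028235, plus strand: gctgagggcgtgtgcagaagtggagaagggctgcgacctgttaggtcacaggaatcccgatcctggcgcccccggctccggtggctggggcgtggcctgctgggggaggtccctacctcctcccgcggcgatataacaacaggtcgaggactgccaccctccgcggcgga
Krt7, chr15:101412253-101412422, plus strand: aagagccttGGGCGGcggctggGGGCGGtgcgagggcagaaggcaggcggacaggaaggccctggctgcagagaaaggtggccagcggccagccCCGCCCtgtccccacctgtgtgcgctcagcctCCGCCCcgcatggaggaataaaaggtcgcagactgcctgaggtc
Krt5, chr15:101712886-101713055, minus strand: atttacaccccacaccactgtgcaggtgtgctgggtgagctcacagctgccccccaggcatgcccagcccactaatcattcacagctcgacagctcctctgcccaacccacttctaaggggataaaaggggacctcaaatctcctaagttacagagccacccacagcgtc
Krt8 held TATAAA at the annotated start, overlapping its own match on the other strand, Krt7 held 4 matches to GGGCGG, and Krt18 and Krt5 held none of the 4 motifs. Over the 35 keratin windows TATAAA was present in 15, against 8.10% of 32851 windows of all genes, and GGGCGG in 2 (Krt7 and Krt75) against 30.3%. TGANTCA and AACCGG were each present in 1 keratin window, that of Krt13, against 4.74% and 4.08% of all windows. A match describes letters in this window and not a bound site.

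Most tubuloid keratin RNA came from the keratins of simple epithelium. Krt7, Krt8, Krt18 and Krt19 together made up 84.5% to 95.6% of keratin TPM in a library, and keratins as a whole 0.0730% to 0.274% of all TPM. These 4 were the only keratins at 100 TPM or more in every library. Of the 48 genes, 42 had at least 1 count in some library, 18 reached 1 TPM in at least 1 library and 8 did so in every library (the 4 simple keratins, Krt10, Krt15, Krt17 and Krt20). Krt9, Krt24, Krt27, Krt34, Krt35 and Krt71 had no count anywhere. The remaining 24 counted genes never reached 1 TPM, with at most 68 counts in a library. They included 17 of the 22 hair and hair sheath keratins, a group of which only Krt39 passed 1 TPM, at 1.15 in DMSO 20. The log2 change of Krt39 with DOX was -1.06 (DESeq2 adjusted p = 0.999) and -0.05 without DMSO 20 and DOX 19.

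**Figure D1:**
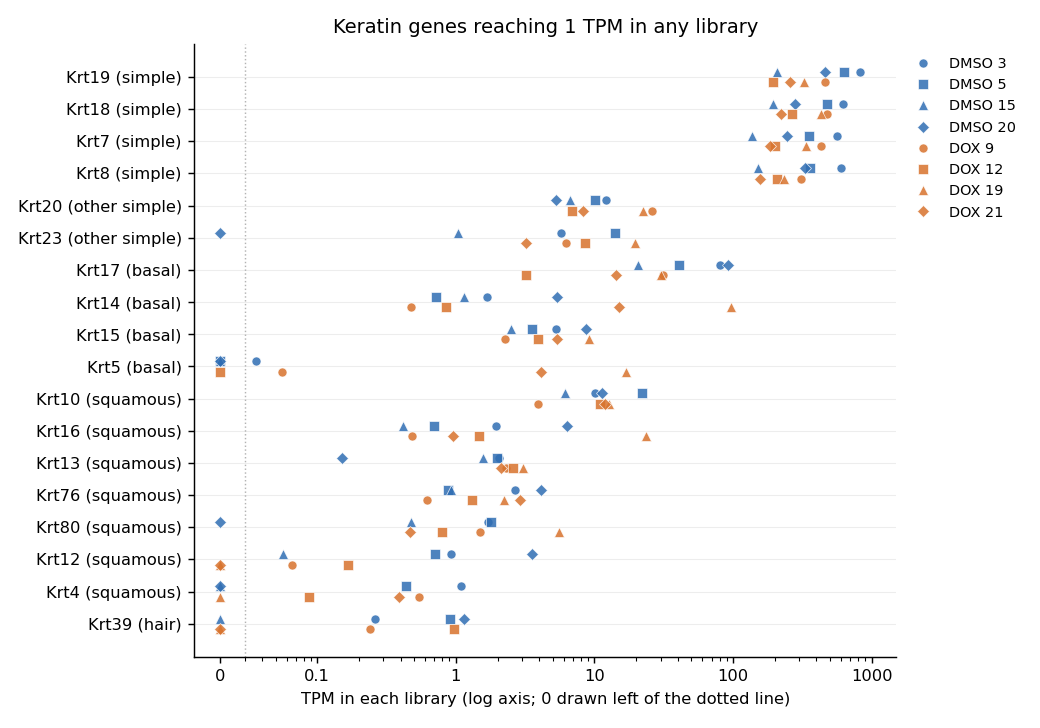
Level of the 18 keratin genes that reached 1 TPM in any of the 8 libraries, on a log axis, with 1 point per library (DMSO blue, DOX orange) and zeros drawn at the left. The 4 simple keratins lie above 100 TPM in every library, while Krt5 and Krt14 spread from near 0 to 16.9 and 97.2 TPM.

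Krt8 (Entrez 16691, chromosome 15, 101996711 to 102004342) encodes the type II partner found in nearly all simple epithelia. It was at 597, 359, 151 and 329 TPM in DMSO 3, 5, 15 and 20. In DOX 9, 12, 19 and 21 it was at 309, 208, 235 and 157 TPM. Krt8 was highest in DMSO 3 and lowest in DMSO 15, so the spread of the DMSO libraries enclosed that of all DOX libraries. Its DESeq2 log2 fold change from normalised counts was -0.74 (SE 0.459, adjusted p = 0.999).

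Krt18 (Entrez 16668, chromosome 15, 102028216 to 102032026), the type I partner of Krt8, was at 627, 477, 194 and 281 TPM in DMSO 3, 5, 15 and 20 and at 477, 267, 429 and 221 TPM in DOX 9, 12, 19 and 21. DMSO 3 was again highest and DMSO 15 lowest. The log2 fold change was -0.25 with an SE of 0.475 (adjusted p = 0.999 in DESeq2) and became 0.17 when DMSO 3 was left out.

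Krt7 (Entrez 110310, chromosome 15, 101412403 to 101427806), the type II keratin of ducts, was at 559.6, 354, 137 and 246 TPM in DMSO 3, 5, 15 and 20 and at 434, 201, 336 and 184 TPM in DOX 9, 12, 19 and 21. The DMSO libraries enclosed all DOX libraries, with DMSO 3 the highest and DMSO 15 the lowest. The log2 fold change was -0.24 with an SE of 0.523 (adjusted p = 0.999 in DESeq2), and it was 0.28 without DMSO 3.

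Krt19 (Entrez 16669, chromosome 11, 100140810 to 100145926), the smallest type I keratin and a duct marker, was at 826, 634, 207 and 460.5 TPM in DMSO 3, 5, 15 and 20. In DOX 9, 12, 19 and 21 its level was 461, 196, 325 and 257 TPM. Here DOX 12 was the lowest library, just under DMSO 15, and the groups still overlapped. The DESeq2 log2 fold change of -0.83 (SE 0.492, adjusted p = 0.999) was the largest of the 4 in size.

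**Figure D2:**
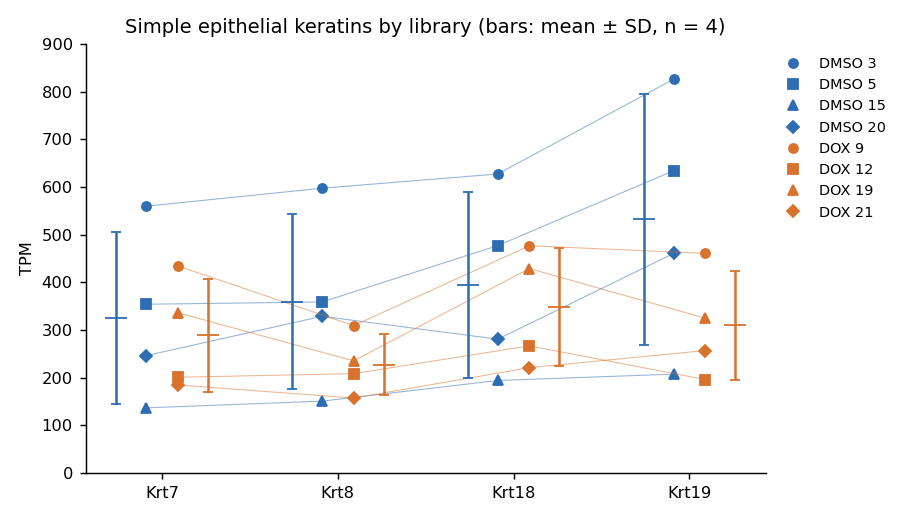
TPM of the 4 simple keratins in each library, with thin lines joining the values of 1 library and bars giving the mean ± SD of 4 libraries (DMSO blue, DOX orange). DMSO 3 is highest for all 4 genes, and the libraries keep nearly the same order from gene to gene.

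By mean TPM over the 8 libraries the order was Krt19 (421), Krt18 (371), Krt7 (306) and Krt8 (293). Krt19 exceeded Krt18 in 5 of 8 libraries, and Krt8 exceeded Krt7 in 5 of 8, so the order within these neighbouring pairs varied. Krt18 exceeded Krt7 in all 8 libraries and Krt8 in 7, although the ranges of all 4 genes over the libraries overlapped. Each simple keratin varied 3.23-fold (Krt18) to 4.22-fold (Krt19) between its highest and lowest library. Summed over the 4 genes, the level was 1610 ± 813 TPM with DMSO and 1174 ± 407 TPM with DOX (mean ± SD of 4 libraries per group), with DMSO 3 at 2610 and DMSO 15 at 688 enclosing all DOX libraries (819 to 1681). In RNA from whole cultures, fewer epithelial cells and less keratin RNA per epithelial cell cannot be told apart.

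The kidney epithelial genes shared the low level in DMSO 15 but not one order of libraries. Epcam, an epithelial adhesion molecule, was also highest in DMSO 3 (389.8 TPM) and lowest in DMSO 15 (46.6 TPM), and Cdh1, which encodes E-cadherin, was lowest in DMSO 15 (15.2 TPM) and highest in DMSO 5 (96.9 TPM). Cdh16 and Pax2 were also highest in DMSO 5 (533 and 4.84 TPM), and Pax8 was highest in DOX 12 (117 TPM), where the simple keratins were low. Vim, the vimentin of mesenchymal filaments, was highest in DMSO 15, at 995 TPM, and lowest in DMSO 5 and DMSO 3, at 90.3 and 201 TPM. The other 5 libraries held 279.8 to 486 TPM of Vim, with DOX 9 the highest of them, and did not run opposite to the simple keratins. The stromal list (Col1a1, Col1a2, Col3a1, Pdgfra, Pdgfrb, Dcn, Lum and Postn) summed to 2674 TPM in DMSO 15 and to 273 to 969 TPM in the other DMSO libraries, and to 510 to 886 TPM with DOX. Col1a1, Col1a2 and Col3a1 carried most of the sum in DMSO 15 (732, 525 and 895 TPM), whereas Pdgfra was lower there (12.2 TPM) than in any other DMSO library and Pdgfrb (163 TPM) was below its level in DMSO 20 (313 TPM). Its 8 genes had a median log2 change of -0.91 with DOX, 0 called by DESeq2 and 1 (Col1a1, lower) at an unadjusted p under 0.05, against 2.47% of all genes. The log2 change of Col1a1 was -1.85 with all libraries and -0.31 without DMSO 15 (DESeq2 unadjusted p = 0.619). The part of the epithelial and stromal content of each culture in the keratin values was not tested. The ratio of the simple keratin sum to Epcam was not constant either, running from 4.88 in DMSO 5 to 14.8 in DMSO 15.

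**Figure D3:**
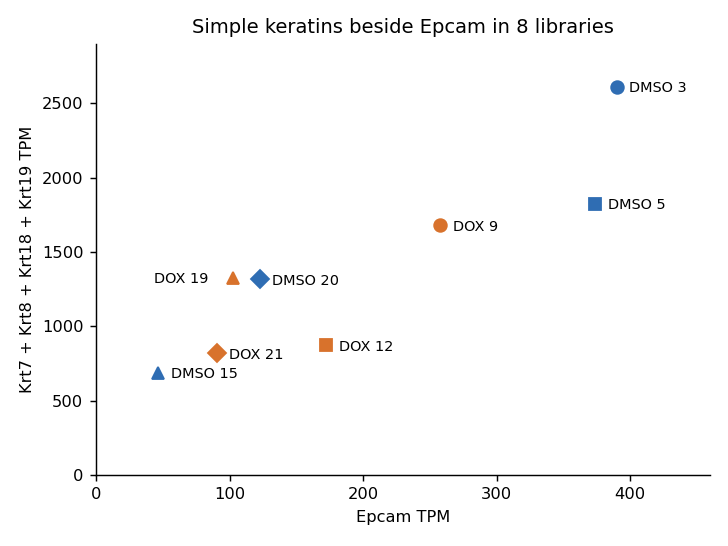
Summed TPM of Krt7, Krt8, Krt18 and Krt19 against the TPM of Epcam, 1 point per library (DMSO blue, DOX orange). DMSO 15 lies lowest and DMSO 3 highest on both axes, and the groups intermix.

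Within this shared level, the balance between the simple keratins varied. These ratios were formed after the levels had been seen and are described without a test. Krt18 stood to Krt8 as 1.13 ± 0.222 with DMSO and 1.51 ± 0.233 with DOX (mean ± SD of 4 libraries per group), with ranges of 0.854 to 1.33 and 1.28 to 1.82. Krt7 stood to Krt8 as 0.895 ± 0.103 in DMSO and 1.24 ± 0.219 in DOX libraries, and Krt19 to Krt18 as 1.34 ± 0.235 and 0.905 ± 0.201. In each of these ratios the ranges of both groups overlapped by at least 1 library. All type I keratins together amounted to 1.22 to 1.68 times all type II keratins, 1.52 ± 0.136 in DMSO and 1.44 ± 0.185 in DOX libraries, so the balance of the types moved far less than the keratin level.

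Krt20 and Krt23, type I keratins of other simple epithelia (Krt20 of intestinal and umbrella cells), were present at low level. Krt20 ranged from 5.25 to 12.1 TPM in DMSO and from 6.85 to 26.1 TPM in DOX libraries, highest in DOX 9 and DOX 19 (DESeq2 log2 fold change 0.85, SE 0.581, adjusted p = 0.999). Without DMSO 20 and DOX 19 the change was 0.44. Krt23 ranged from 0 in DMSO 20 to 14.1 TPM in DMSO 5, and from 3.23 to 19.6 TPM with DOX. Its log2 fold change of 0.86 with an SE of 1.33 (adjusted p = 0.999 in DESeq2) became -0.25 without DMSO 20 and DOX 19. Neither gene separated the groups.

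Keratins of basal and squamous epithelium made up 2.48% to 12.8% of keratin TPM, and the highest share was in DOX 19. Summed over 18 genes they reached 87.4 ± 42.3 TPM with DMSO and 82.1 ± 80.1 TPM with DOX (mean ± SD of 4 libraries per group), with ranges of 34.3 to 132 and 26.1 to 201. The DOX mean rested on DOX 19, at 201 TPM: the log2 ratio of the group means was -0.09 with all libraries, -1.04 without DOX 19 and -0.77 without DMSO 20 and DOX 19. The sum differed between groups by less than the spread within them, but its make-up differed between libraries. Krt17 alone supplied from 12.3% of it, in DOX 12, to 73.8%, in DMSO 3.

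Krt5 (Entrez 110308, chromosome 15, 101707069 to 101712905), the type II keratin of basal cells, had 1580.5 normalised counts in DOX 19 and 378 in DOX 21. It had 3.7 in DMSO 3, 5.1 in DOX 9 and 0 in DMSO 5, DMSO 15, DMSO 20 and DOX 12, where 3 counts would be 0.0282 to 0.0449 TPM. Krt5 was thus present at 16.9 and 4.14 TPM in 2 of 4 DOX libraries, while the other 2 were like the DMSO libraries. The fitted log2 fold change was 9.01 (SE 2.32, DESeq2 unadjusted p = 0.000102, adjusted p = 0.0599), which rests on 4 counts in all DMSO libraries and is no measure of size. The low count filter of edgeR removed Krt5, and in DESeq2 it was among the 0.253% of all genes at an adjusted p of 0.1 or less. Without DMSO 3 the adjusted p of DESeq2 was 0.0335 and without DOX 12 it was 0.00157, whereas it was 0.161 without DMSO 5, 0.311 without DMSO 20, 0.0571 without DMSO 15 and 0.0699 without DOX 9, and without DOX 19 or without DOX 21 the fit left no p. Without DMSO 20 and DOX 19 the fitted change was 6.72, also with no p.

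Krt14 (Entrez 16664, chromosome 11, 100203162 to 100207510), the type I partner of Krt5, had 131, 44.3, 90.3 and 351 normalised counts in DMSO 3, 5, 15 and 20. In DOX 9, 12, 19 and 21 it had 33.1, 49.0, 6903 and 1036. DOX 19 and DOX 21 were again the highest, at 97.2 and 15.0 TPM, but DOX 9 lay below all DMSO libraries and DOX 12 below 3 of them. The log2 fold change was 3.70 (SE 1.31, DESeq2 unadjusted p = 0.00471, adjusted p = 0.472, edgeR adjusted p = 0.999) and fell to 1.29 when DOX 19 was left out and to 2.10 without DMSO 20 and DOX 19, with no p in either fit. In limma-voom it was 0.89 (unadjusted p = 0.685). Relative to the 4 simple keratins, Krt5 and Krt14 together amounted to 86.1 TPM per 1000 TPM in DOX 19 and 23.4 in DOX 21, against 0.317 to 4.11 in the other 6 libraries.

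Krt17 (Entrez 16667, chromosome 11, 100256215 to 100261029), a type I keratin of basal cells, ducts and wounded epidermis, had the highest level of this class in each DMSO library and in DOX 9. Krt14 was higher in DOX 19 and DOX 21, and Krt10 in DOX 12. It had 5709, 2301, 1478 and 5419 normalised counts in DMSO 3, 5, 15 and 20. With DOX it had 1957, 168, 1948 and 904 in DOX 9, 12, 19 and 21. The 2 highest libraries were DMSO 3 and DMSO 20 and the lowest was DOX 12, and DMSO 15 lay among the DOX libraries. The log2 fold change was -1.58 (SE 0.740, DESeq2 unadjusted p = 0.0324, adjusted p = 0.868, edgeR adjusted p = 0.999). In DESeq2 the unadjusted p was 0.111 without DMSO 3, 0.0932 without DMSO 20 and 0.0833 without DOX 21. Krt14 and Krt17, both type I keratins of basal cells, thus had fold changes of opposite sign.

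Krt16 (chromosome 11, 100246091 to 100248902), the type I keratin of wounded epidermis, was highest in DOX 19, at 23.7 TPM, followed by DMSO 20 at 6.37 TPM, and was at 0.419 to 1.96 TPM elsewhere. The Cook's distance filter of DESeq2 gave it no p, and its log2 fold change of 1.54 turned to -1.38 without DOX 19 and to -0.30 without DMSO 20 and DOX 19. Krt6a, which pairs with Krt16 and lies outside the symbol rule, had 350, 754 and 175 normalised counts in DMSO 20, DOX 19 and DOX 21 and at most 3.01 in the other libraries. Its fitted log2 change of 1.4 was 5.87 without DMSO 20 and DOX 19, with no p. DMSO 20 therefore held Krt6a, Krt14 and Krt16 with no count of Krt5. Krt14, Krt16 and Krt17 have closely similar sequences, as have Krt6a and Krt6b, and the assignment of reads that they share is not given in the sources used here.

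**Figure D4:**
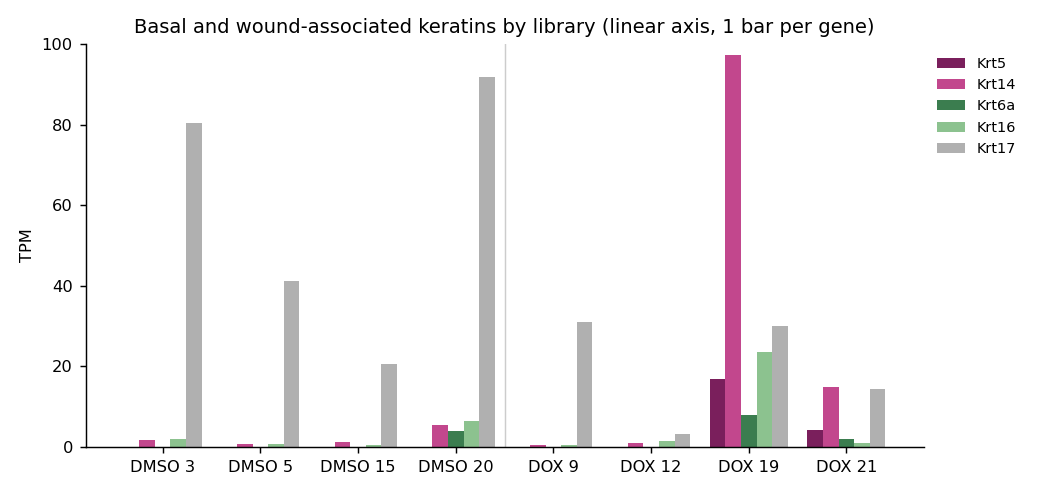
TPM of Krt5, Krt14, Krt6a, Krt16 and Krt17 in each library on a linear axis starting at 0, with DMSO libraries at the left. Krt5 is visible in DOX 19 and DOX 21 only, and Krt17 reaches 91.9 TPM in DMSO 20 and 3.21 TPM in DOX 12.

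Krt15, a keratin of basal and hair follicle stem cells, ranged from 2.52 to 8.66 TPM in DMSO and from 2.28 to 9.21 TPM in DOX libraries. Its log2 fold change was 0.02 with an SE of 0.581 (adjusted p = 0.999 in DESeq2). The direction of so small a difference turned to -0.11 without DMSO 20 and DOX 19.

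Among squamous keratins, Krt10, the suprabasal keratin of epidermis, was the most abundant on average, from 6.14 to 22.1 TPM in DMSO and from 3.90 to 12.8 TPM in DOX libraries (DESeq2 log2 fold change -0.35, SE 0.485, adjusted p = 0.999). Its epidermal type II partner Krt1 never passed 0.345 TPM. Krt13, of mucosal epithelium, was at 1.56 to 2.03 TPM in DMSO 3, 5 and 15, at 0.150 TPM in DMSO 20, and at 2.11 to 3.03 TPM in DOX libraries (log2 fold change 0.69, SE 0.751, DESeq2 adjusted p = 0.999). Without DMSO 20 and DOX 19 the change of Krt13 was 0.18. Its partner Krt4 was at 0 to 1.09 TPM in DMSO and 0 to 0.543 TPM in DOX libraries, with a log2 change of -0.69 with all libraries and -0.65 without DMSO 20 and DOX 19. In both pairs the type I gene had the higher level in every library.

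Krt12 (Entrez 268482, chromosome 11, 99415664 to 99422593), the type I keratin of corneal epithelium, had 81.0, 48.4, 5.0 and 255 normalised counts in DMSO 3, 5, 15 and 20. It had 5.1 and 10.7 in DOX 9 and DOX 12 and 0 in DOX 19 and DOX 21. DMSO 15 overlapped the DOX libraries, and DMSO 20 held most of the counts. The log2 fold change was -4.60 (SE 1.54, DESeq2 unadjusted p = 0.0028, adjusted p = 0.369, edgeR adjusted p = 0.999) and was -3.48 without DMSO 20 and -3.05 without DMSO 20 and DOX 19. Krt76, of oral epithelium, and Krt80 ranged from 0.616 to 4.13 and from 0 to 5.56 TPM over the 8 libraries, with log2 fold changes of -0.34 (SE 0.723) and 1.03 (SE 1.33) and DESeq2 adjusted p-values of 0.999 each. Krt80 was highest in DOX 19, and without DMSO 20 and DOX 19 its change was -0.60 and that of Krt76 was -0.06.

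As a ratio, type I keratins outweighed type II keratins in the basal and squamous class 20.3 ± 6.88 times with DMSO and 8.48 ± 3.12 times with DOX (mean ± SD of 4 libraries per group). The DMSO libraries ran from 15.6 to 30.6 and the DOX libraries from 5.97 to 13.0, without overlap. This ratio was formed after the levels were seen and was not tested. For scale, groups did not overlap for 2.45% of 19634 single genes. Krt5 was the most abundant type II member in DOX 19 and DOX 21, and Krt17 the most abundant type I member in each DMSO library.

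DOX and DMSO cultures were compared to find early changes in RNA after loss of Pkd2, and no keratin passed the threshold. DESeq2 called 0 of the 27 keratins with an adjusted p, against 0.147% of 17011 genes (0.0823% higher and 0.0647% lower with DOX) past the limits of 0.05 for the adjusted p and 1.5-fold for the change. The edgeR quasi-likelihood test called 0 of the 19 keratins it kept, and 0.0% of all 15562 genes. On simulated counts DESeq2 recovered 54% and edgeR 49% of genes changed 4-fold, so a keratin without a call may still be changed. At an unadjusted p under 0.05 DESeq2 found 4 of 41 keratins with a p, against 4.67% of all genes. Krt5 and Krt14 were the higher ones, against 2.2% of all genes, and Krt12 and Krt17 the lower ones, against 2.47%. In edgeR, 2 of 19 keratins had such a p, against 3.06% of all genes, Krt14 among the higher (1.56%) and Krt12 among the lower (1.5%). On normalised counts, the ranges of the DOX and DMSO libraries were apart for 0 of the 42 counted keratins, against 2.45% of all genes. On the TPM scale Krt13 lay higher in every DOX library than in any DMSO library (at least 2.11 against at most 2.03 TPM). On normalised counts Krt13 overlapped, with DOX 21 at 115 and DMSO 3 at 126. The share of all genes apart on the TPM scale was not determined. The smallest adjusted p of a keratin other than Krt5 was 0.369 in DESeq2. The 41 keratins had a median log2 change of -0.34, 17 higher and 24 lower, against -0.07 over all genes with a p. All 4 simple keratins lay below 0 (median -0.49), as did 12 of 18 hair and hair sheath keratins at very low counts, while 3 of 4 basal keratins lay above 0. Of these 3, Krt15 was at 0.02, and the changes of Krt5 and Krt14 rested on DOX 19 and DOX 21. The SE of the 18 named keratins ran from 0.459 (Krt8) to 2.32 (Krt5) on the log2 scale. Without DMSO 3 the changes of Krt8 and Krt19 were -0.27 and -0.43 (DESeq2 unadjusted p = 0.467 and 0.35). Without DMSO 15, Krt8 and Krt19 had DESeq2 unadjusted p-values of 0.0178 and 0.0151 and adjusted p-values of 0.397 and 0.373.

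**Figure D5:**
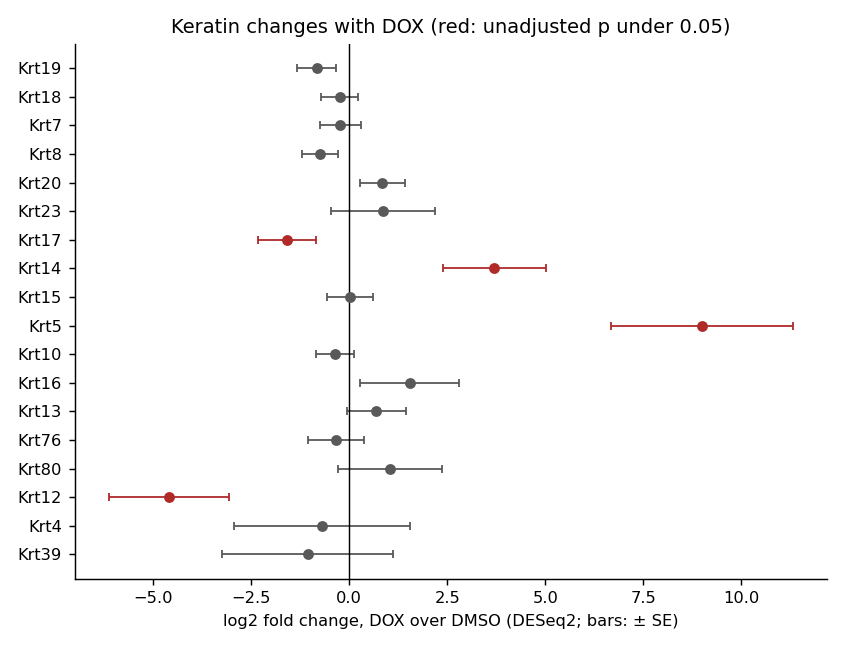
DESeq2 log2 fold change of DOX over DMSO for the 18 keratin genes, with bars giving ± SE and red marking an unadjusted p under 0.05. Krt5 and Krt14 lie to the right and Krt12 and Krt17 to the left, and no keratin passed the adjusted threshold.

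Genes that accompany basal keratins in stratified epithelium were called in no case. Of 11 basal epithelial genes (Trp63, Krt6a, Krt6b, Col17a1, Itga6, Itgb4, Lamb3, Dsg3, Pkp1, Bnc1 and Lgals7) 8 had a log2 change above 0 and 3 below, with a median of 0.23, and DESeq2 called 0. Only Dsg3, a desmosomal cadherin of basal cells, had an unadjusted p under 0.05, against 2.2% of all genes higher with DOX, with 341 normalised counts in DOX 19 and at most 33.1 elsewhere. Its log2 change of 5.70 became 3.32 without DOX 19 (DESeq2 unadjusted p = 0.0586) and 2.94 without DMSO 20 and DOX 19 (DESeq2 unadjusted p = 0.0600). Trp63, the transcription factor p63 of basal cells, was highest in DMSO 5 (1323 normalised counts), which had no Krt5, and had 391 and 401 in DOX 19 and DOX 21. Its log2 change was -0.14 with all libraries and -0.56 without DMSO 20 and DOX 19. The summed list ran from 56.3 to 262 TPM in DMSO and from 78.9 to 245 TPM in DOX libraries.

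Of 15 measured cornified-layer genes, 13 had a p and DESeq2 called 2, both higher with DOX, against 0.0823% of all genes. The list was chosen with earlier results of these data known, so this count is no test of cornified genes as a set. On simulated counts with no changed gene DESeq2 still made about as many calls as in these libraries, and edgeR made none. The called genes were Cdsn, which encodes corneodesmosin (DESeq2 adjusted p = 0.0113), and Grhl3, an epidermal barrier transcription factor (DESeq2 adjusted p = 0.0154). Cdsn had 372 to 1674 normalised counts with DOX, highest in DOX 9, and at most 73.6 with DMSO. Grhl3 had 828 normalised counts in DOX 19 and 39.8 to 105 in the other DOX libraries, against at most 14.9 with DMSO, and its log2 change was 5.29. Its call was lost without DMSO 5 (5.39, DESeq2 adjusted p = 0.0819) and without DOX 19 (3.55, DESeq2 adjusted p = 0.235), and without DOX 12 the fit left no p (5.66). The log2 change of Cdsn was 4.45, and its call was lost without DMSO 3, DOX 9 or DOX 21 at changes of 4.64, 4.11 and 4.30 (DESeq2 adjusted p = 0.0523, 0.141 and 0.0779). Without DMSO 20 and DOX 19 both stayed called, at 4.35 for Cdsn (DESeq2 adjusted p = 1.6e-19) and 3.17 for Grhl3 (DESeq2 adjusted p = 0.0239). Both were higher in all 4 DOX libraries than in any DMSO library, but edgeR called neither (adjusted p = 0.999). The median log2 change of the list was 0.53, with 7 of 13 above 0, but low counts enter both. The median is that of Tgm3, with 1 count in 1 library, and Sprr1b and Cnfn each had 10 counts in DOX 12 only. Ivl, Lor, Sprr1a, Sbsn and Ovol1, counted in all 8 libraries, lay below 0. Cdsn, Grhl3 and Tgm1, counted in 7, lay above 0. The summed level of the list was 85.4 to 216 TPM in DMSO and 85.4 to 126 TPM in DOX libraries.

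Uroplakins, the defining genes of urothelium, which also uses Krt5 and Krt20, lay at 0.973 to 3.84 TPM summed over Upk1a, Upk1b, Upk2, Upk3a and Upk3b in DMSO and at 0 to 3.41 TPM in DOX libraries. DOX 19, with the most Krt5 and Krt14, had 0 TPM for all 5. It was, however, with DMSO 20, a library with few genes counted, and DMSO 20 had a count for Upk1a only. The list had a median log2 change of 0.12, with 3 above and 2 below 0, 0 called and 0 at an unadjusted p under 0.05 in DESeq2. That median is the change of Upk2, with at most 12 counts in a library and an SE of 3.28, so it gives no direction.

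Linkers of keratin filaments were read out as the RNA of 11 genes (Dsp, Plec, Eppk1, Ppl, Evpl, Jup, Pkp2, Pkp3, Dst, Fam83h and Tchp). DESeq2 called 0, and 3 had a change above and 8 below 0 (median -0.24). Jup, the plakoglobin of desmosomes and adherens junctions, had an unadjusted p under 0.05, against 2.2% of all genes higher with DOX, with 10697 to 18035 normalised counts in DMSO and 16687 to 24548 in DOX libraries (log2 fold change 0.59, SE 0.265, DESeq2 adjusted p = 0.831). Without DMSO 5, DMSO 15, DOX 19 or DOX 21 its DESeq2 unadjusted p was 0.0705 to 0.0905. Among 13 other intermediate filament genes (Vim, Des, Gfap, Nes, Synm, Prph, Ina, Nefl, Nefm, Nefh, Lmna, Lmnb1 and Lmnb2), 12 had a p, DESeq2 called 0, 3 lay above and 9 below 0 (median -0.43), and 0 had an unadjusted p under 0.05. The 5 kidney epithelial genes all had a change below 0 (median -0.53), with 0 called and 0 at an unadjusted p under 0.05. Among them Pax8 was at -0.002, and the change of Cdh1 turned to 0.13 without DMSO 3.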

How the data were processed

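RNA was measured in 8 tubuloid libraries, grouped by their titles. The authors prepared libraries with the SMART-Seq v4 kit after poly-A selection, aligned the reads with STAR and, per the labels, counted them with featureCounts on mm10; versions are not given in the sources used here. In the deposited tables, count values are whole reads assigned to each RefSeq transcript, FPKM values relate them to length and library total and were not used, and TPM values were scaled by the authors so that each library has the same sum. Counts and TPM were summed by symbol (33068 transcripts, 24063 genes). Every keratin had 1 transcript, so isoforms were not counted repeatedly for it, although 4914 other genes had several.

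DOX was compared with DMSO by the DESeq2 1.42.0 Wald test (R 4.3.3), which the study also used. Size factors were medians of ratios, independent filtering used an alpha of 0.1, values far out by Cook's distance were filtered, changes were not shrunken, and p-values had a Benjamini-Hochberg adjustment over all genes. Calls needed an adjusted p of at most 0.05 and at least 1.5-fold. Normalised counts are counts divided by size factors. edgeR 4.0.16 (quasi-likelihood) and limma 3.58.1 (voom) were alternatives, beside TMM factors, a minimum of 10 counts, the filter off, 1 transcript per gene and left-out libraries. Tests were tested on simulated data, in which DESeq2 made false calls and edgeR made none. Keratins named are Krt5, Krt7, Krt8, Krt14, Krt18, Krt19, those reaching 1 TPM and those at an unadjusted p under 0.05. The members and lists were chosen with earlier results of these data known. Flg, on the cornified list, was not analysed here. Another listed gene is not reported here and was left out of its list. Depth was 63922677 to 102716313 counts; intervals and limits on zeros cover counting error only.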

Additional observations from a re-analysis of the deposited data

Results flagged for a closer look

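Dixon's test compared the distance between an extreme library and its neighbour with the whole range of the group, on the log2(normalised count + 1) scale. Over 40 groups of 4 libraries it marked 2, the number that chance gives at about 1 in 20. Krt5 in DMSO 3 had a gap of 1, the whole range, because the other 3 DMSO libraries had no count. Krt13 in DMSO 20 had a gap of 0.903, with 7.7 normalised counts against 96.7 to 126 in the other DMSO libraries.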

How the results depend on the processing

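No paired analysis was possible because the groups share no library number. The 25 genes called by DESeq2 in all became 0 in edgeR and in limma-voom, 16 with at least 10 counts in every library, 48 with the Cook's distance filter off, 51 without DMSO 20 and DOX 19, and 14 to 75 when 1 library was left out. Called keratins rose from 0 to 1 (Krt5) with that filter off and with 1 transcript per gene (adjusted p = 0.0394 and 0.0438 in DESeq2), and ranged from 0 to 1 when 1 library was left out. The cause was not tested. Keratins at an unadjusted p under 0.05 numbered 2 in place of 4 in edgeR, in limma-voom, with at least 10 counts in every library and without DMSO 20 and DOX 19, and 1 to 6 when 1 library was left out. Of 42 keratins with a count, 20 had a mean normalised count of at least 10 and 16 of at least 50. Log2 fold changes reversed in limma-voom for Krt4 (0.57), Krt15 (-0.16) and Trp63 (2.80), and without DMSO 20 and DOX 19 for Krt15 (-0.11), Krt16 (-0.30), Krt23 (-0.25) and Krt80 (-0.60). For the 18 named keratins 109 of 117 results kept direction and call over the other alternatives, and 132 of 144 when 1 library was left out, where Krt4 (-1.40 to 0.97), Krt7 (-0.52 to 0.28), Krt15 (-0.45 to 0.35), Krt16 (-1.38 to 2.60), Krt18 (-0.46 to 0.17), Krt76 (-0.71 to 0.087) and Krt80 (-0.21 to 1.55) changed direction. Outside these 18, Krt6a (-0.57 to 7.84), Trp63 (-0.55 to 2.10) and Cdh1 (-0.58 to 0.13) also did so. Cdsn and Grhl3 were not called in edgeR (log2 fold change 4.45 and 5.28) or limma-voom (5.40 and 4.69). The log2 ratio of the group means ran from -0.71 to -0.12 for simple and from -1.04 to 0.21 for basal and squamous keratins when 1 library was left out. Krt5 had 0 to 4 counts in each DMSO library, and its fitted change depends on them.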
